A study of Mus musculus with 24 samples.

Results

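Open chromatin of long-term haematopoietic stem cells (LT-HSCs) was compared with that of KLS cells in mice with intact Daxx. The libraries were 4 of the 24 in the series, 2 per group, and each group was represented by 1 list of ATAC-seq peaks made from its 2 libraries together. LT-HSCs were sorted from the bone marrow of C57BL/6 mice of the genotype Daxx +/+ Cre +/- at 3 days after induction of Cre, as CD150+ cells that lacked CD48, Flk2, Il-7Ra and lineage markers and carried both c-Kit and Sca-1. KLS cells, defined by c-Kit and Sca-1 without lineage markers, came from mice of the same strain and genotype at 3 weeks after induction. Both groups therefore carried a Cre allele and received an inducing agent. The labels give Daxx +/+ for every one of these libraries, although the study also describes a control with 1 floxed allele (Daxx +/F) at 3 days, so that a floxed allele in 1 LT-HSC library is possible. The mice of the 3-day experiment carried RosaCreER, a tamoxifen-activated Cre expressed in most tissues, whereas the Cre line of the KLS mice used for ATAC-seq was not given in the sources used here. For RNA-seq of KLS cells at 3 weeks the study names Mx1Cre, which is induced with pI:pC, an agent that raises interferon. Cell type, time after induction, number of sorted cells and possibly the Cre line and its inducer differed together between the groups, and their parts in any difference cannot be told apart. Because only 1 list per group was analysed there was no spread between libraries in the lists, so counts and shares below are descriptions without a test.

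ATAC-seq uses a transposase that inserts sequencing adapters where DNA is not covered by nucleosomes, and a peak is a stretch with more insertions than its surroundings. LT-HSCs sit at the top of the blood hierarchy, divide rarely and can rebuild all lineages after transplantation. The KLS gate holds these cells together with the more numerous multipotent progenitors, which divide more and have started to lean towards the myeloid or lymphoid lineages, so the comparison sets a purified population against a mixture that contains it. Much of the change in accessibility along this path is known to lie in distal elements rather than at promoters. Such elements are bound by transcription factors including RUNX1, the ETS factor Pu.1, which drives myeloid and B cell programmes, and factors of the GATA, C/EBP and interferon regulatory families.

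The LT-HSC list held 36949 distinct intervals with a median width of 930 bp, and the KLS list held 33325 with a median width of 854 bp. Fold enrichment, the height of a peak over its background as the authors' peak caller gave it, had a median of 6.22 in LT-HSCs and 5.67 in KLS. Depth of the lists is known only through a separate table of sites, in which the mean number of reads per 600 bp window was 9.6 and 7.93 in the LT-HSC libraries and 8.36 and 7.49 in the KLS libraries. A peak was called shared where it overlapped a peak of the other list by at least 1 bp. By this rule 9607 LT-HSC peaks (26.0%) were absent from the KLS list and are called LT-HSC only, while 5721 KLS peaks (17.2%) were absent from the LT-HSC list and are called KLS only. Cutting both lists to an equal length by fold enrichment left 7198 LT-HSC only and 6878 KLS only peaks. Lists of equal length give similar counts by construction, so this cut does not tell where the surplus in LT-HSCs came from. Requiring the overlap to cover 50% of the shorter interval moved the counts to 9638 and 5745, and accepting a gap of 500 bp moved them to 9081 and 5565.

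Regions near genes of stem cells, and near genes of the lymphoid, granulocyte and monocyte lineages, illustrate the 2 classes. The LT-HSC only sequences below are among the peaks of highest fold enrichment, more than 1 kb from any start site and outside exons, whose nearest protein-coding gene was a stem cell identity gene. Each runs from 100 bases before to 100 bases after the peak's summit on the + strand of GRCm38 (mm10), and capitals mark matches to any of the 13 motifs described further on. Mllt3 encodes a reader of acylated histones that maintains stem cells, Ctnnal1 encodes alpha-catulin and marks stem cells, and Mecom encodes the zinc finger factor EVI1 needed for stem cell maintenance. All 3 peaks lay in introns of an annotated gene, which need not be the named one. They were 17.1 kb (Mllt3), 27.7 kb (Ctnnal1) and 32.3 kb (Mecom) from the nearest protein-coding start site.
Mllt3, chr4:87823303-87823503: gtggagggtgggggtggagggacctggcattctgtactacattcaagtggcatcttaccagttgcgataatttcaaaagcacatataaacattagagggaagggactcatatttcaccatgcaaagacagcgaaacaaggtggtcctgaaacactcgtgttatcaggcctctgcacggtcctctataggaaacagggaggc
Ctnnal1, chr4:56892811-56893011: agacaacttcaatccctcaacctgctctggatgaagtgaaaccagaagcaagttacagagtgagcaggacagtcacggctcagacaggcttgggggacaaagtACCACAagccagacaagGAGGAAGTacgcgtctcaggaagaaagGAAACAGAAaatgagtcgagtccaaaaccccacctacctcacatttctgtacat
Mecom, chr3:30477103-30477303: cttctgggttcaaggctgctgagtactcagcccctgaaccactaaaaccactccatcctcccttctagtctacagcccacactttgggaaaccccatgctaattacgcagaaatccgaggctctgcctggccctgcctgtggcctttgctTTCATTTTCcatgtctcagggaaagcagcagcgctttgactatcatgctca
The region near Mllt3 held none of the motifs, although its fold enrichment of 8.10 was the highest of the 3. The Ctnnal1 region (fold enrichment 7.92) held a RUNX, a Pu.1 and an interferon response element match within one short stretch. A single interferon response element lay in the Mecom region (6.96). All 3 peaks were also present in both the LT-HSC and the KLS list of Daxx-KO mice, described further on.

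The KLS only counterparts were chosen in the same way from peaks nearest to genes of the lymphoid priming and the granulocyte and monocyte lists. Ly86 encodes MD-1, which pairs with the Toll-like relative RP105, Notch1 encodes the receptor that starts T cell commitment, and Irf8 encodes a transcription factor of monocytes and dendritic cells. These 4 regions were also intronic in an annotated gene, not necessarily the named one. The Irf8 peak was 80.0 kb from the nearest protein-coding start site.
Ly86, chr13:37348250-37348450: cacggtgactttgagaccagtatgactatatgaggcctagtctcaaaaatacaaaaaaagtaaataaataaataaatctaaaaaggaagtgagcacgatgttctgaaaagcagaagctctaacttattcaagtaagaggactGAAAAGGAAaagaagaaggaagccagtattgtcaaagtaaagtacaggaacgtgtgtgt
Notch1, chr2:26472424-26472624: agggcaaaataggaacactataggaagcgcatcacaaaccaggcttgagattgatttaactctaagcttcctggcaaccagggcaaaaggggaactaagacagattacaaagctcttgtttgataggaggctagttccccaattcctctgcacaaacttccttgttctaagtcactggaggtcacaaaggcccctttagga
Ly86, chr13:37353923-37354123: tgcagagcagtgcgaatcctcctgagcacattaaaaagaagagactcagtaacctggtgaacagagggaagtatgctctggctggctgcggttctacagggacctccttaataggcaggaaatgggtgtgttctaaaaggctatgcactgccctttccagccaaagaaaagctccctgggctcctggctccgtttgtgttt
Irf8, chr8:120832066-120832266: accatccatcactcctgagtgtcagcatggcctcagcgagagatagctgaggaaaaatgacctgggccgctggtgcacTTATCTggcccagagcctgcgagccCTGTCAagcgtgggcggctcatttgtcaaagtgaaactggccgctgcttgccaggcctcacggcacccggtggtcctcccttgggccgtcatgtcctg
The first Ly86 region (fold enrichment 5.67) held an interferon response element, and 47.3% of its bases were soft-masked as repeat. Neither the Notch1 region (5.35) nor the other Ly86 region (5.02) held any of the motifs. The Irf8 region (4.94) held a GATA and a MEIS match. All of these KLS only peaks except that near Irf8 were also present in the LT-HSC and KLS lists of Daxx-KO mice.

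Peaks particular to one list were weak ones. Median fold enrichment was 4.46 for LT-HSC only peaks and 4.57 for KLS only peaks, against 7.21 and 6.03 for the shared peaks of the respective list. They were also narrower, at a median of 636 and 607 bp against 1036 and 918 bp. In the lowest decile of the LT-HSC list 66.2% of peaks were LT-HSC only, and this share was 0.947% in the highest decile. The KLS list had 31.7% in its lowest decile, 34.5% in the next and 0.630% in the highest. Only 1190 LT-HSC only peaks (12.4%) and 976 KLS only peaks (17.1%) stood above the median of their own list.

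**Figure D1:**
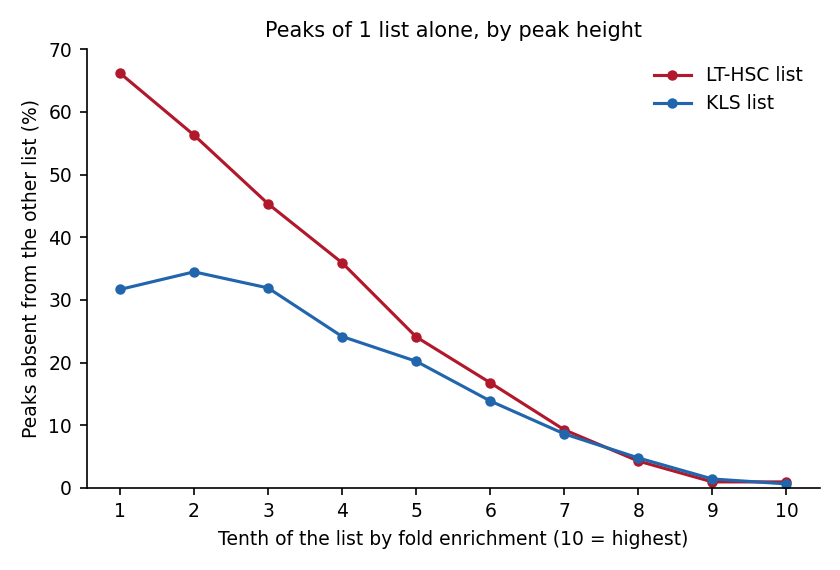
Share of peaks (percent, vertical axis) that were absent from the other list, by decile of fold enrichment (horizontal axis, lowest to highest), for the Daxx-WT LT-HSC list and the Daxx-WT KLS list. The LT-HSC share runs from 66.2% in the lowest decile to 0.947% in the highest, and the KLS share from 31.7% to 0.630%.

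Distal peaks, more than 1000 bp from every annotated start site, made up 74.8% of LT-HSC only and 85.3% of KLS only peaks, compared with 48.2% and 48.4% of the shared peaks of the 2 lists. Introns held 39.8% of LT-HSC only and 45.3% of KLS only peaks, and intergenic sequence held 32.3% and 37.9%. Promoters were the reverse, with 22.3% of LT-HSC only and 12.7% of KLS only peaks. The median distance from the peak to the nearest annotated start site, of any gene type, was 5.398 kb for LT-HSC only and 9.20 kb for KLS only peaks. LT-HSC only minus KLS only, the distal share differed by -10.5 percentage points, and by -4.09 points when the lists were cut to equal length. Base composition differed as well, since the sequence around distal summits had a median GC content of 51.7% in LT-HSC only peaks and 47.8% in KLS only peaks, with 52.2% in shared ones.

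Promoters open in one list alone were few and included lineage genes. A protein-coding gene was counted where a peak lay within 1 kb of one of its start sites, and 12597 of 21911 genes had such a peak in both lists. Another 1060 genes (4.84%) had it in the LT-HSC list alone and 260 (1.19%) in the KLS list alone. Among 20 stem cell identity genes Tek was of the first kind, and none was of the second. Tek encodes the angiopoietin receptor TIE2, and its peak at chr4:94738836-94739989 had a fold enrichment of 5.31.

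Granulocyte genes stood on the KLS side, with Mpo, Prtn3 and Itgam open at the promoter in the KLS list alone and Cebpe in the LT-HSC list alone, out of 15 genes. Mpo encodes myeloperoxidase of the granules of neutrophils, and its KLS only peak at chr11:87793244-87793870 had a fold enrichment of 3.85, held Pu.1, GATA and RUNX matches, and was listed in progenitors of the common myeloid (CMP) and of the granulocyte-monocyte (GMP) stage but not in LT-HSCs without a time label. The peak of Prtn3, which encodes proteinase 3, lay at chr10:79874099-79874763 with a fold enrichment of 3.17. That of Itgam, which encodes the integrin CD11b, lay at chr7:128062486-128062871 with a fold enrichment of 4.75. All were low in the list, at percentiles of 10.3, 2.51 and 30.3, where 100 is the highest peak. Unlike the Mpo peak, those of Prtn3 and Itgam were listed in LT-HSCs without a time label, and both genes had a promoter peak in Daxx-KO LT-HSCs, with fold enrichments of 2.64 and 3.56. A protein that the LT-HSC gate selects against, CD48, also had a promoter peak in the KLS list alone. The Cd48 peak at chr1:171680841-171681362 was close to the bottom of that list, with a fold enrichment of 2.68. Both Daxx-KO lists had a Cd48 promoter peak, with a fold enrichment of 5.59 in LT-HSCs and 6.03 in KLS cells.

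Promoter sequence is shown for 1 gene of each side, as the 250 bases before the start site. It was taken on the + strand from RefSeq on GRCm38.p6, with matches to the same motifs in capitals. The Tek peak covers its whole stretch, whereas the Itgam peak begins within its stretch, at position 128062486.
Tek promoter, chr4:94739039-94739288: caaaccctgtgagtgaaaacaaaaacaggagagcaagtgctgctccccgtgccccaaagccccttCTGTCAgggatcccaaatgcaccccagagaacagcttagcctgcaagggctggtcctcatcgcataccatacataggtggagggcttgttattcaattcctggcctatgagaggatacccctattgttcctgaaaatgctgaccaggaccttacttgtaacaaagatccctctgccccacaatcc
Itgam promoter, chr7:128062390-128062639: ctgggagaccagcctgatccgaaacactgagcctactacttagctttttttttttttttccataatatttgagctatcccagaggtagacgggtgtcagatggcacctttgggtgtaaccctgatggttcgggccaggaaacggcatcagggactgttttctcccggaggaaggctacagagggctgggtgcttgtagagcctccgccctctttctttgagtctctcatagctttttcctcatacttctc
The Tek stretch held 1 MEIS match and the Itgam stretch none of the motifs. These letters describe the window only.

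T cell genes and imprinted genes were the lists with the largest share of promoters with a peak in the LT-HSC list alone. Tcf7, Cd247, Bcl11b and Thy1 had a promoter peak in the LT-HSC list alone, 4 of the 8 T and NK cell genes. Their percentiles were 37.9, 4.02, 14.7 and 17.7. The Tcf7 peak overlapped a KLS peak (chr11:52284104-52284596, fold enrichment 3.62) that was not counted at the promoter. All 4 genes had a promoter peak in Daxx-KO KLS cells, and Cd247 had none in Daxx-KO LT-HSCs. Tcf7 and Bcl11b encode transcription factors of early T cells, Cd247 a chain of the T cell receptor complex, and Thy1 a surface protein that is also present on mouse stem cells. Of 12 imprinted genes, 5 (Igf2, Dlk1, Plagl1, Sgce and Mest) had a promoter peak in the LT-HSC list alone and none in the KLS list alone. Their percentiles were 13.1, 5.21, 9.45, 14.5 and 51.5. In Daxx-KO KLS cells Sgce and Mest had a promoter peak, whereas Igf2, Dlk1 and Plagl1 had none. Dlk1 also had none in Daxx-KO LT-HSCs, where Igf2, Plagl1, Sgce and Mest each had a promoter peak. The Dlk1 peak was also absent from the Daxx-WT lists without a time label. In the lymphoid priming list the only gene with a promoter peak in the LT-HSC list alone was Ebf1, a B cell factor. Ebf1 had a promoter peak in both Daxx-KO lists. Among erythroid and megakaryocyte genes the only one was Gp1bb, a subunit of the platelet receptor for von Willebrand factor. In the endothelial list Cdh5, encoding VE-cadherin, had a promoter peak in the KLS list alone. No gene of the B cell list had a promoter peak in one list alone.

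Genes of both sorts were further described by the number of LT-HSC only and KLS only peaks whose nearest protein-coding start site they held, within 100 kb. Of all protein-coding genes, 5947 (27.1%) were nearest to at least 1 LT-HSC only peak and 3720 (17.0%) to at least 1 KLS only peak. Among stem cell identity genes these numbers were 14 of 20 and 6 of 20. Together the list held 32 LT-HSC only and 8 KLS only peaks, of which 10 and 2 had the same cell type pattern in the Daxx-KO lists. With lists of equal length the counts were 13 and 7 genes. Mecom was the foremost, with 9 LT-HSC only, 2 KLS only and 5 shared peaks. One of its LT-HSC only peaks covered a promoter at chr3:30012768-30013682 with a fold enrichment of 3.11, at percentile 3.24. That peak was listed in Daxx-KO KLS cells and not in Daxx-KO LT-HSCs. Mecom also had a promoter peak in both Daxx-WT lists, with fold enrichments of 5.57 in LT-HSCs and 4.54 in KLS. The other LT-HSC only peaks of Mecom lay mainly in introns, including chr3:30477007-30477388, chr3:30448529-30449212 (6.79) and chr3:30104625-30105765 (6.35).

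Hlf, encoding a bZIP factor of stem cells, had 3 LT-HSC only peaks and no KLS only peak. A pair of these lay on either side of one start site, at chr11:90381078-90381595 and chr11:90381866-90382583, both listed in Daxx-KO LT-HSCs and not in Daxx-KO KLS cells. Prdm16, a transcriptional regulator of stem cell upkeep, had 3 against 1, and Mllt3 had 3 against 2. Fgd5 and Slamf1 each had 2 against none. Fgd5 marks LT-HSCs, and Slamf1 encodes CD150, on which the LT-HSC gate selects. The stronger Slamf1 peak, at chr1:171761351-171762606 outside the gene body, had a fold enrichment of 6.41 and was present in both Daxx-KO lists. Meis1, encoding a homeodomain protein, had 2 against 1. Tek and Vwf had 1 against none, and Angpt1, encoding the ligand of TIE2, had 1 KLS only peak and no LT-HSC only peak.

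The granulocyte and monocyte list leaned the other way. LT-HSC only peaks were nearest to 4 of 15 genes and KLS only peaks to 8 of 15, with 8 and 13 peaks in all, and equal list lengths gave 3 and 9 genes. Ly86 had 4 KLS only and 2 LT-HSC only peaks. Itgam had 2 KLS only peaks, one of them with Pu.1, AP-1 and C/EBP matches, and no LT-HSC only peak. Fcgr3, encoding an Fc receptor of myeloid cells, had 2 against 1, and Mpo, Prtn3, Gfi1 and Csf2ra had 1 KLS only peak against none. The list was not uniform, since Csf3r, encoding the G-CSF receptor, had 2 LT-HSC only peaks and no KLS only peak, and Irf8 had 3 LT-HSC only peaks and 1 KLS only peak.

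Erythroid and megakaryocyte genes had LT-HSC only peaks near 5 of 14 and KLS only peaks near 1 of 14, and this order was lost at equal list lengths, at 3 and 3. Zfpm1, encoding the GATA cofactor FOG1, had 6 and 2, Nfe2 had 2 and 0, and Gata1, Gp9 and Gp1bb had 1 and 0. Of the lymphoid priming list, 7 of 13 protein-coding genes had LT-HSC only and 2 had KLS only peaks, with 6 and 3 at equal lengths. Ebf1 had 3 LT-HSC only peaks against none, Bcl11a 2 against 1, and Notch1 2 against 2. Flt3 and Il7r, whose proteins the LT-HSC gate selects against, had neither kind. The B cell list had LT-HSC only peaks near 1 gene of 8 (Igll1) and KLS only peaks near 3 (Pax5, Ms4a1 and Blnk), all with a single peak. T and NK cell genes had LT-HSC only peaks near 4 of 8 and KLS only peaks near 2 of 8, and equal lengths turned this to 2 and 3.

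Factors of the blood heptad, which jointly occupy stem cell enhancers, were near peaks of both kinds. LT-HSC only peaks were nearest to 6 of these 7 genes and KLS only peaks to 4, with 5 and 5 at equal lengths. Fli1 had 3 and 2, and Erg had 2 and 1. Imprinted genes had LT-HSC only peaks near 10 of 12 and KLS only peaks near 3 of 12, or 8 and 4 at equal lengths. Plagl1 and Grb10 had 2 against none, Dlk1 2 against 2, and Igf2r 1 against 4. Cell cycle genes (7 and 3 of 15) and immediate early genes (10 and 8 of 14) did not keep their order, at 4 and 5 and at 4 and 13 with lists of equal length. Mki67 had 3 LT-HSC only peaks and Fos 4, each a gene of proliferation or acute stimulation, while Klf4 had 2 and 3 and Cdk6 2 and 3. Interferon-stimulated genes had 5 and 4 of 18. Stroma and endothelium genes, which a blood sort should lack, had 3 and 2 of 8, from Cdh5, Pecam1 and Kdr, of which Pecam1 is also expressed by blood cells. Over all 152 listed genes, counted once, 75 had LT-HSC only and 48 had KLS only peaks, but at equal lengths the numbers were 56 and 64.

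**Figure D2:**
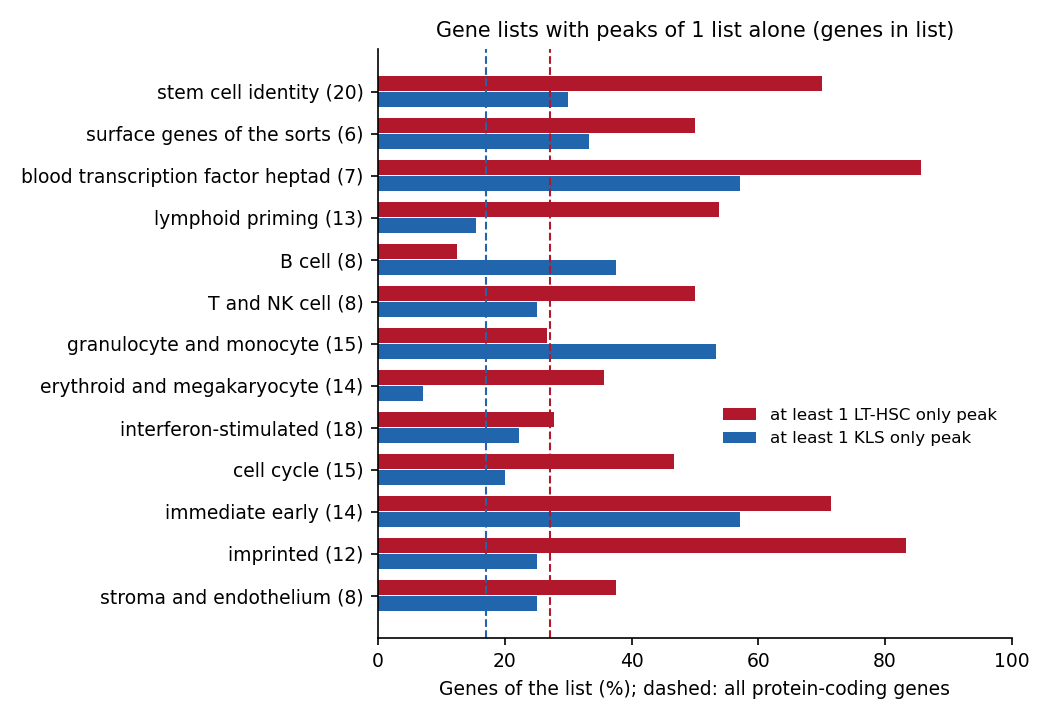
Percent of the protein-coding genes of each of 13 lists (horizontal axis) that were nearest, within 100 kb, to at least 1 LT-HSC only or KLS only peak, with the share of all protein-coding genes as vertical lines (27.1% and 17.0%). Stem cell identity genes had 14 and 6 of 20, and granulocyte and monocyte genes 4 and 8 of 15.

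Across all genes, 4770 had more LT-HSC only than KLS only peaks and 2275 the reverse, and 1752 had both. The widest margins for LT-HSC were at Otud7a and Rgs3, each with 8 peaks against none. Otud7a encodes a deubiquitinase and Rgs3 a regulator of G protein signalling. Foxp1, a forkhead factor with roles in B cells and stem cells, had 11 against 4, and Mecom was the gene with 9 against 2 in this ranking. Mdga1 (8 and 1), Bahcc1 (7 and 0), Pde4d (10 and 4), Ablim1 (8 and 2), Gse1 (8 and 2) and Sgms1 (8 and 2) followed. The widest margins for KLS were smaller. Sfi1 had 6 against none, and Aff1, Enox1 and Fer1l6 had 5 against none, Aff1 encoding a component of the super elongation complex. Dock5 (6 and 2), Asap1, Kctd1, Syn3 and Syne1 (5 and 1 each) and Abca4 (4 and 0) completed the 10.

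The strongest distal peaks of LT-HSC only type lay in repeats. All 10 with the highest fold enrichment had a summit region of which at least 50% was soft-masked, among them chr12:120028157-120029013 (fold enrichment 34.0, nearest gene Tmem196) and chr8:83756688-83757080 (32.2, near Adgre5). The 10 were found in the list of LT-HSCs without a time label and in the Daxx-KO LT-HSC list, and 1 was found in the Daxx-KO KLS list. Of the 10 KLS only distal peaks with the highest fold enrichment 4 were mostly repeat, and the first, chr3:62158986-62159539 (16.9, near Arhgef26), was not. Of these 10, 9 were listed in Daxx-KO KLS cells and 1 in Daxx-KO LT-HSCs. Over all members the share of mostly repeat regions was 4.81% for LT-HSC only and 3.92% for KLS only, against 1.49% of the LT-HSC peaks that were shared. The part of mapping to repeats in these peaks was not tested, and the main counts without them were 9145 and 5497.

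Sequence around the summits differed between the classes. Literal words were searched on both strands within 100 bp of the summit, and the words can overlap each other. The RUNX word TGTGGT stood in 31.7% of KLS only peaks, 20.2% of LT-HSC only peaks and 18.5% of shared LT-HSC peaks. For Pu.1 the word was GAGGAAGT, found in 10.7%, 5.33% and 6.49% in the same order. The interferon response element, read by interferon regulatory factors, was searched as GAAANNGAA and stood in 11.6%, 5.65% and 6.00%. If the KLS mice received pI:pC, this agent cannot be told apart from cell type here. Factors of the C/EBP family drive granulocyte genes, and their word TTGCNNAA stood in 11.3%, 7.04% and 6.68%. A general ETS word, ACAGGAAG, was found in 8.76% of KLS only and 6.18% of LT-HSC only peaks. The MEIS word TGACAG was found in 18.3% and 13.6%, and the PAR bZIP word TTANNTAA, which HLF can bind, in 5.38% and 2.63%.

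Other words were more frequent in LT-HSC only peaks. For CTCF, the factor that borders chromatin loops, the word AGGGGGC is a part of its site and stood in 11.7% of LT-HSC only peaks and in 5.401% of KLS only peaks, with 11.8% of shared LT-HSC peaks. The E-box with the letters CAGGTG stood in 16.6% of LT-HSC only and 12.1% of KLS only peaks. The remaining words lay close together in both classes. They were GATA with the letters AGATAA (9.06% of LT-HSC only and 8.88% of KLS only peaks), AP-1 with the letters TGANTCA (9.66% and 9.09%), KLF with the letters GGGTGTGG (2.62% and 2.39%) and a further E-box whose letters are CAGCTG (15.8% and 15.8%). In 32851 windows of the same length that end at the start site of RefSeq promoters, RUNX stood in 11.2%, Pu.1 in 2.07%, the interferon response element in 5.58%, C/EBP in 7.497% and CTCF in 8.29%.

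Distal peaks alone kept these directions, with 32.5% of KLS only and 22.3% of LT-HSC only peaks for RUNX, 11.1% and 5.85% for Pu.1, 11.8% and 6.07% for the interferon response element, and 4.96% and 11.3% for CTCF. Shared distal LT-HSC peaks lay between the classes for these 4 words, at 27.6%, 9.45%, 7.86% and 9.14%. Because GC content differed, the shares were also taken over the 5128 LT-HSC only and 3088 KLS only peaks with 45 to 55% GC, where RUNX stood in 23.9% and 32.4%, Pu.1 in 6.49% and 11.7%, the interferon response element in 6.90% and 11.6%, and CTCF in 10.5% and 5.41%. GATA then separated the classes more, with 11.2% of LT-HSC only and 7.93% of KLS only peaks.

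**Figure D3:**
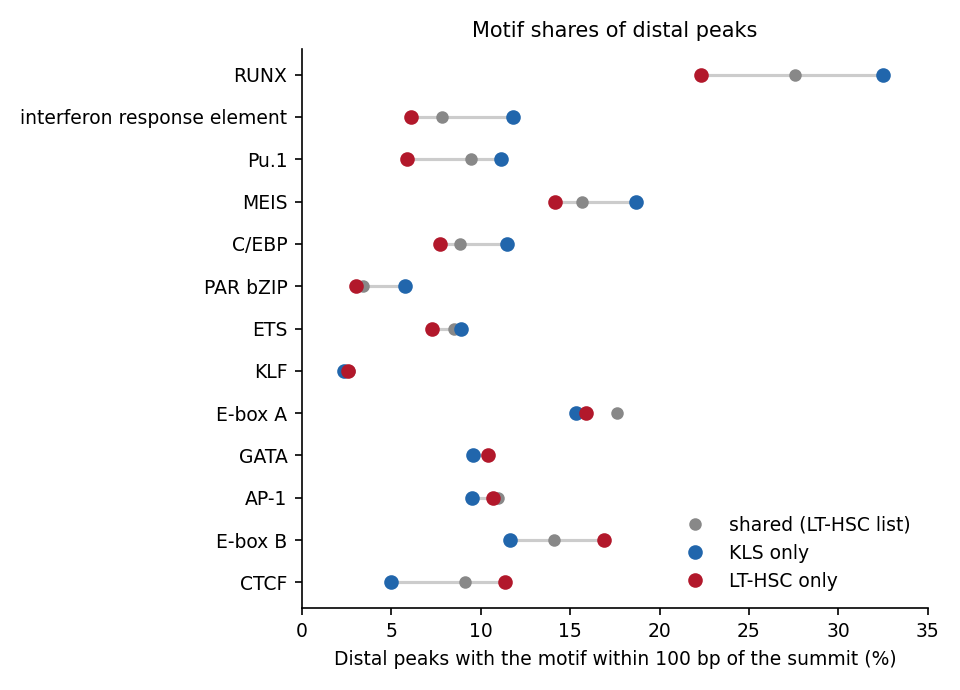
Percent of distal peaks (horizontal axis) with a match to each of 13 motifs within 100 bp of the summit, for LT-HSC only, KLS only and shared peaks of the LT-HSC list, where E-box A has the letters CAGCTG and E-box B has the letters CAGGTG. RUNX stands in 32.5% of KLS only and 22.3% of LT-HSC only distal peaks, and CTCF in 4.96% and 11.3%.

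The position of the words gave a further contrast. In the central 50 bp bins of distal peaks, Pu.1 words were found in 4.62% of KLS only and 2.00% of LT-HSC only peaks per bin, whereas bins more than 200 bp from the summit had 0.347% and 0.371%. RUNX words were found in 12.4% and 7.51% per central bin and in 4.14% and 4.17% per outer bin, so the outer sequence of the 2 classes was alike in these words. The interferon response element was above its outer level at the summits of KLS only peaks (3.63% against 1.99%) and not at those of LT-HSC only peaks (1.51% against 1.75%). CTCF words were 6.38 times as frequent at the centre as in the outer bins in LT-HSC only peaks and 3.63 times in KLS only peaks. The E-box CAGGTG had a central excess of 1.30 times in LT-HSC only peaks, and 0.860 times in KLS only peaks.

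**Figure D4:**
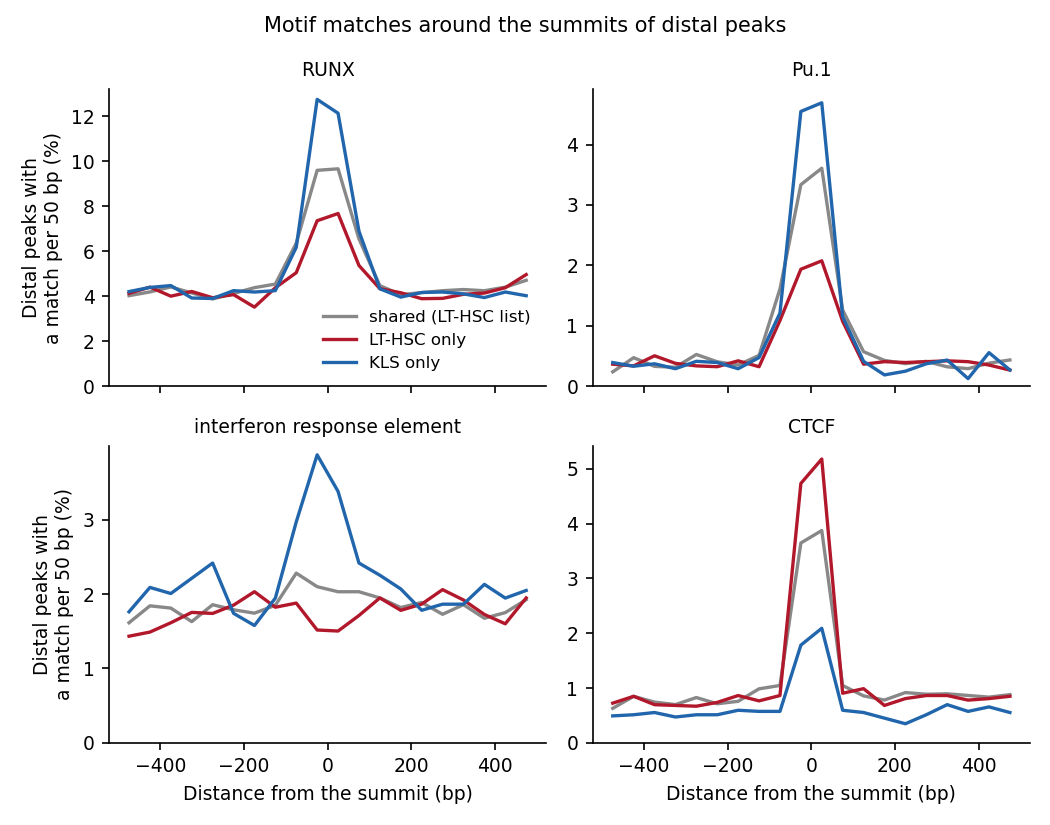
Percent of distal peaks with a motif match in each 50 bp bin (vertical axis) against the distance of the bin from the summit in bp (horizontal axis), for LT-HSC only and KLS only peaks, with shared peaks of the LT-HSC list beside them. Pu.1 words reach 4.62% per central bin in KLS only and 2.00% in LT-HSC only peaks and are near 0.347% and 0.371% in the outer bins.

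Lists of other Daxx-WT mice contained most peaks of both classes. LT-HSCs without a time label had a peak at 93.8% of LT-HSC only and 88.0% of KLS only regions, and at 99.7% of shared LT-HSC peaks. This list was longer, with 65455 intervals. The labels of these libraries give no time. For sorted LT-HSCs, CMPs and GMPs the study describes ATAC-seq of RosaCreER mice at 3 weeks after tamoxifen, with another library protocol. CMPs, an intermediate myeloid progenitor, had a peak at 73.1% and 75.02%, and GMPs, the progenitor of granulocytes and monocytes, at 59.3% and 65.9%. The order for CMPs turned to 0.315 points higher in LT-HSC only peaks at equal list lengths and is not read as a difference. Regions listed in CMPs or GMPs but not in these LT-HSCs were 303 LT-HSC only peaks (3.15%) and 501 KLS only peaks (8.76%), with 0.256% of shared peaks. Conversely 1871 LT-HSC only (19.5%) and 998 KLS only peaks (17.4%) were listed in these LT-HSCs and in neither progenitor. All 3 lists held 5113 (53.2%) and 3116 (54.5%).

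The Daxx-KO lists of the same 2 populations, from Daxx F/F mice at the same times with 3 libraries each, offered the same contrast in other animals. Of LT-HSC only peaks 76.6% were listed in Daxx-KO LT-HSCs and 54.0% in Daxx-KO KLS cells. Of KLS only peaks 49.8% were listed in Daxx-KO LT-HSCs and 74.0% in Daxx-KO KLS cells. The pattern of the Daxx-WT lists recurred in full for 2991 LT-HSC only peaks (31.1%) and 1909 KLS only peaks (33.4%), while the opposite pattern was found for 816 (8.49%) and 523 (9.14%). Both Daxx-KO lists held 4368 LT-HSC only (45.5%) and 2327 KLS only peaks (40.7%), and neither held 1432 (14.9%) and 962 (16.8%). Among shared LT-HSC peaks 93.0% were in both. The genotype differs from Daxx-WT, and the Daxx-KO mice shared the time and cell number of their Daxx-WT counterparts, so these lists do not separate cell type from time.

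Several motif contrasts were wider in the peaks whose pattern recurred. RUNX words stood in 35.6% of the KLS only and 16.9% of the LT-HSC only peaks of this kind, Pu.1 words in 12.6% and 4.28%, the interferon response element in 12.9% and 5.08%, and CTCF in 3.67% and 11.6%. The contrast of the E-box CAGGTG narrowed to 1.57 points from 4.46 points, LT-HSC only minus KLS only, and that of AP-1 changed sign to -1.93 points. These peaks were named after the Daxx-KO lists had been read.

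Shared peaks were compared by percentile rank of fold enrichment within each list, LT-HSC minus KLS. Over 27221 pairs the median was 3.15 points (interquartile range -4.72 to 13.6). More than 25 points higher in LT-HSC were 2785 pairs (10.2%), and more than 25 points higher in KLS were 1233 (4.53%). Of 14086 pairs near a start site 9.46% were higher in LT-HSC and 1.65% in KLS, and of 13135 distal pairs 11.1% and 7.61%. The targeted gene, Daxx, had a promoter peak at percentile 93.1 in LT-HSCs and 81.6 in KLS, and Spi1, which encodes Pu.1, at 56.6 and 51.3.

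Promoters of erythroid and megakaryocyte genes ranked higher in LT-HSCs, by a median of 19.05 points over the 9 genes with a promoter peak in both lists. Gfi1b, a repressor of these lineages and of stem cells, was at percentile 66.2 and 19.3. Epor, the erythropoietin receptor, was at 77.1 and 33.8, and Zfpm1 at 59.0 and 18.3. The stem cell identity promoters differed by a median of 12.4 points over 15 genes, with Hlf at 70.8 and 48.1. The heptad promoters differed by 13.7 points over 7 genes. Other lists were also positive, with imprinted promoters at 14.2 points over 6 genes, cell cycle promoters at 8.81 over 15 and immediate early promoters at 3.97 over 14. All pairs near a start site had a median of 3.79 points. In contrast, the median of the granulocyte and monocyte promoters was -1.75 points over 6 genes, with Csf3r at 7.39 in LT-HSCs and 37.1 in KLS. Csf2ra of the same list went the other way, at 53.9 and 27.1. Kit and Flt3, both surface genes of the sorts, were at 81.1 and 70.7 and at 91.4 and 84.6, so the Flt3 promoter was open in cells sorted as Flk2-.

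All shared peaks near stem cell identity genes, 49 pairs, had a median of 7.84 points. Of these, 7 (14.3%) were over 25 points higher in LT-HSC and none in KLS, against 10.2% and 4.53% of all pairs. Examples of the 7 were an intronic peak of Prdm16 (80.4 and 46.2) and a Mecom peak in an exon (69.3 and 37.8). The 31 distal pairs of this list had a median of 2.99 points, against 2.19 points for all distal pairs. Granulocyte and monocyte genes had 31 pairs with a median of 0.219 points, 1 (3.23%) higher in LT-HSC and 3 (9.68%) in KLS. Gfi1, a repressor needed for granulocytes, had a peak at 17.95 in LT-HSCs and 71.9 in KLS, and Csf2ra, a GM-CSF receptor chain, had a Pu.1-bearing peak at 58.9 and 98.3. Cdkn1a, the cell cycle inhibitor p21, had an intronic peak at 68.4 in LT-HSCs and 1.69 in KLS, and an intergenic one at 23.8 and 50.5. Cdk6, a cell cycle kinase gene, had an intronic peak at 25.5 and 70.3 and another at 30.2 and 1.551. Single genes thus held both directions, and Zfpm1 had an intronic peak at 31.6 and 79.5 beside its promoter.

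The largest differences of all shared peaks in favour of LT-HSCs lay at promoters of Sipa1l2 (88.4 and 0.675), Trio, Zfp609, Hipk2 and near Tcte2, from 87.7 down to 73.8 points. Those in favour of KLS were distal peaks near Actbl2 (10.2 and 90.4), Cd28, Ccdc54, Thbs1 and Myo16, from -80.2 to -71.5 points. The 5 promoter or start-site peaks were all wider in the LT-HSC list than the matched KLS peak. Motifs followed the same line as for the unshared peaks, since RUNX words stood in 32.8% of pairs higher in KLS, 16.6% of pairs higher in LT-HSC and 18.01% of the others. Pu.1 words stood in 13.8%, 4.81% and 6.32%, C/EBP words in 12.8%, 5.10% and 6.56%, and CTCF words in 4.54%, 14.2% and 11.9%. Near a start site lay 1332 of the 2785 pairs higher in LT-HSC and 233 of the 1233 pairs higher in KLS. These motif shares were not taken over distal pairs alone, so the part of this mix was not tested.

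The Daxx-KO lists gave a reading of these ranks in other animals. Time after induction and number of sorted cells differed there together with cell type, as in Daxx-WT. Of 2606 pairs higher in Daxx-WT LT-HSCs with a match in both Daxx-KO lists, 2233 (85.7%) were also higher in Daxx-KO LT-HSCs than in Daxx-KO KLS cells, with a median of 16.3 points. Of 1022 pairs higher in Daxx-WT KLS, 872 were higher in Daxx-KO KLS cells, with a median of -19.1 points. Among the remaining pairs 57.9% were positive, with a median of 1.62 points.

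**Figure D5:**
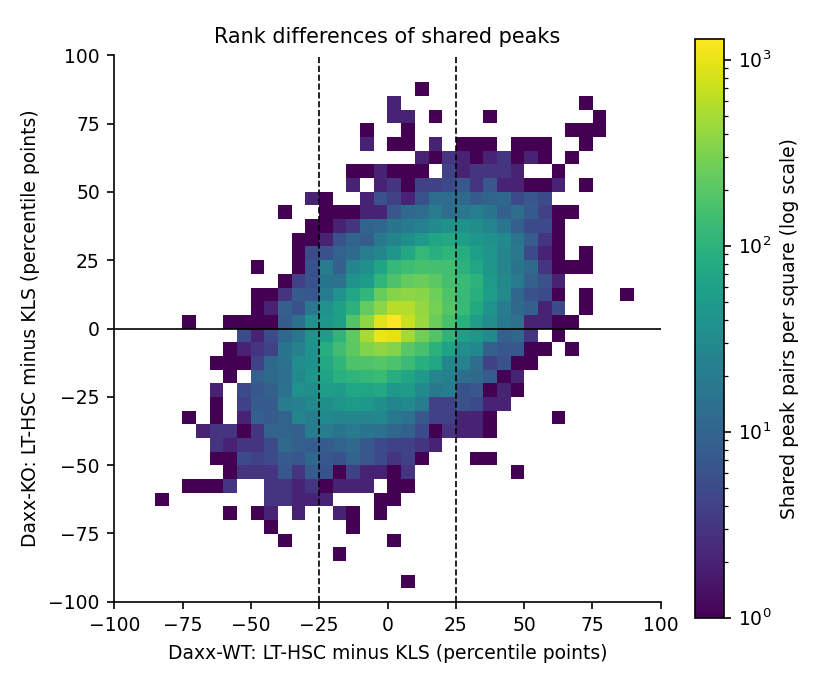
Difference in percentile rank between LT-HSC and KLS for shared peaks in the Daxx-KO lists (vertical axis, points) against the same difference in the Daxx-WT lists (horizontal axis, points), with the number of pairs per square in colour on a log scale and dashed lines at 25 points. Of the pairs to the right of the dashed line 85.7% lie above 0 in Daxx-KO, and of those to the left 14.7%.

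Values of the single libraries were available only at sites that the authors selected for a difference between Daxx-KO and Daxx-WT, 11927 in LT-HSCs and 17311 in KLS cells, and the 2 tables were normalized separately. Reads per 600 bp window were therefore divided by the mean per window of the library, and a member was read only where a site of each table overlapped it by at least 1 bp and the sites covered each other by at least 50% of the shorter. This left 58 LT-HSC only and 26 KLS only peaks. These libraries are the ones from which the peak lists were made. Higher values on the side that named a class therefore follow partly from that choice and do not check it. Both LT-HSC libraries were above both KLS libraries at 42 LT-HSC only peaks (72.4%), below at 3, and overlapping at 13. At KLS only peaks both KLS libraries were above at 9, both LT-HSC libraries were above at 7, and the groups overlapped at 10. With the authors' scaled reads as given, the LT-HSC only count was 52 of 58 (89.7%), and at KLS only peaks the order turned to 8 with KLS above and 13 with LT-HSC above. The KLS only peaks thus gave no stable direction in these libraries. Where both sites covered at least 50% of the peak, the counts were 29 of 41 LT-HSC only peaks with LT-HSC above and, of 18 KLS only peaks, 8 with KLS above and 4 with LT-HSC above. The medians of the LT-HSC libraries at LT-HSC only peaks were 5.33 and 8.51 times the library mean, but 57.5 and 63.1 as scaled reads. For 102 shared LT-HSC peaks the share with both LT-HSC libraries above was 51.0%, or 73.5% as scaled reads.

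A few members show the range and were chosen after their values were seen. The LT-HSC only peak near Dyrk1a, a kinase gene, at chr16:94698115-94699413 had 11.4 and 16.8 times the library mean in the LT-HSC libraries, and 2.79 and 1.804 times in the KLS libraries. The 2 groups did not overlap there. At the KLS only peak in Il1r1, the interleukin-1 receptor gene, at chr1:40270887-40271538 the values were 2.94 and 5.28 in LT-HSC and 9.16 and 7.30 in KLS. In Xpo6, an exportin gene, they were 4.12 and 4.88 against 8.26 and 7.88. The KLS only peak near Tmem125 went against its class, with 36.8 and 53.5 in the LT-HSC libraries and 6.30 and 6.29 in the KLS libraries, although the LT-HSC list had no overlapping interval. Its LT-HSC site also extends well beyond the peak, and reads within the peak itself were not given.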

How the data were processed

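ATAC-seq lists of 2 groups (2 libraries each) were compared. The authors called the peaks, and the deposited lists are conservative IDR lists made from the libraries of a group together, giving per peak a fold enrichment (a ratio over background) and a -log10 p. The submitters' processing notes name CASAVA 1.8.4, cutadapt 1.13, STAR 2.5.3 and bedtools and the build mm10, whereas the caller, its settings and removal of repeat reads are not given in the sources used here. Per the file headers, the other kind of table lists sites chosen for Daxx-KO against Daxx-WT, with positions and reads per library that the authors multiplied by a constant, so values are scaled counts in the unit other. The deposited fold changes and p-values of those tables describe the authors' own comparisons and were not used. Positions alone are given by the lists of untimed Daxx-WT populations (LT-HSC, CMP and GMP). Untimed Daxx-KO lists and material from other genotypes were not used here.

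Rows with the same interval and several summits were merged, keeping the summit of highest fold enrichment. Overlaps, percentile ranks, distances to start sites (GENCODE release M21, GRCm38), motif matches and GC were computed with Python 3.11.15, numpy 2.4.6 and pandas 2.3.3, and figures with matplotlib 3.10.9. The functions for overlap, nearest start site and motif search were tested on simulated data. A peak was given to the protein-coding gene with the nearest start site within 100 kb, and mostly repeat means that at least 50% of the bases within 100 bp of the summit were soft-masked. Intronic means that the summit lay in the body of any annotated gene, outside exons and more than 1 kb from start sites. The LT-HSC table does not tie its library columns to replicate numbers, so its 2 values are unordered. Named genes were those of the 13 lists with a peak in one list only, the 10 genes of widest margin in each direction, the 10 distal peaks of highest fold enrichment per class, the 5 shared peaks of largest rank difference per direction, and Daxx and Spi1. From the 10 highest KLS only peaks and the sequences, chromosome 18 was left out of the text, and some genes are not reported here. The members and lists were chosen with earlier results of these data known. No test was run, since each group had 1 list. Precision is limited by the number of lists, and a count error cannot be given without reads per peak.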

Additional observations from a re-analysis of the deposited data

How the results depend on the processing

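No paired analysis was possible because each group has 1 pooled peak list and no comparison came from a test. For the same reason leaving out a library was not possible. Under the planned settings 52 values of the main comparisons, and under the added ones 17, stayed within their counting interval or, for counts, within 1.5 times, and the rest follow. The settings below marked as added were chosen after seeing the data.

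With both lists cut to the length of the shorter, the difference LT-HSC only minus KLS only in distal share was -4.09 points (main value -10.5), that in CMP share turned from -1.90 to 0.315 points, and that in Daxx-KO KLS share was -15.7 (main -20.1). Among peaks above the median fold enrichment of their list 1190 LT-HSC only and 976 KLS only peaks were left, with differences of 2.12 points in CMP share (reversed), -1.002 in GMP share (main -6.56), 36.2 in Daxx-KO LT-HSC share (main 26.8) and -18.4 in Daxx-KO KLS share. There 3 motifs (main 6) had the higher share in LT-HSC only peaks, and 13 listed genes had LT-HSC only and 5 had KLS only peaks, of which 6 and 0 were stem cell identity genes. The 20000 highest peaks of each list gave 4086 LT-HSC only and 4072 KLS only peaks. A distal limit of 2500 bp gave -12.4 points. Gene bodies extended by 50 kb gave 114 and 79 listed genes. Among distal shared pairs 1453 were over 25 points higher in LT-HSC.

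Added setting: peaks with the same pattern in the Daxx-KO lists numbered 2991 and 1909, with differences of -15.2 points in distal share, 9.61 in the untimed LT-HSC share (main 5.75), -3.98 in CMP and -11.7 in GMP share, 36 and 23 listed genes, and 5 and 2 stem cell identity genes. The other added settings left out mostly repeat peaks, kept a GC content of 45 to 55%, or required both sites to cover at least 50% of the peak. Small motif differences changed sign in part of the settings: the E-box CAGCTG at equal length (-0.747 points), above the median (-1.58), in the Daxx-KO pattern (-1.56) and at matched GC (-2.08), AP-1 above the median (-0.0778) and the Daxx-KO pattern (-1.93), and KLF above the median (-0.340) and at matched GC (-0.322). RUNX, Pu.1, interferon response element, C/EBP, CTCF, MEIS, PAR bZIP, ETS, GATA and E-box CAGGTG differences kept their sign in every setting run. Where values moved, the cause was not tested, apart from settings that keep fewer peaks by construction.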
